A study of Drosophila melanogaster with 2 samples.

Results

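Hedgehog signalling and the anterior-posterior compartment boundary are represented here by 6 Drosophila melanogaster genes, hh, ptc, smo, ci, en and inv, taken by symbol from the 13945 protein-coding genes on the chromosome arms. A region listed for the tagged protein was counted for a gene by its summit, the position of highest signal. The summit had to lie in the gene body or within 5 kb of either end. By this rule 27 summits of the 10918 thresholded regions fell in the windows of 5 of the 6 genes, with 12 at ptc, 6 at inv, 5 at smo, 3 at hh, 1 at ci and none at en. Of all protein-coding genes, 65.5% had at least 1 such summit, so the count of genes was near the background. The number of summits at ptc was not: 0.76% of all genes had 12 or more. Some ptc regions overlap each other, and counting 1 summit per run of overlapping regions gave 10. No share of all genes is given for that count.

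The data are chromatin immunoprecipitation sequencing (ChIP-seq) of whole animals at the white prepupa stage, when the larval cuticle becomes the puparium, with males and females mixed. The animals carried a transgene encoding Espinas (esn), a LIM domain protein related to the planar polarity protein Prickle, fused at its C terminus to green fluorescent protein (GFP), and sonicated chromatin was precipitated through the GFP. There were 2 biological replicates of this 1 group. No untagged group was analysed, so binding of Espinas and regions that precipitate without it cannot be told apart. Nothing in the labels says how separately the 2 collections were raised, so the spread between them may be partly technical. Since whole animals were used, a site occupied in few cells and one weakly occupied in many cannot be told apart.

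In the fly wing disc, abdomen and embryonic segments, cells of the posterior compartment express engrailed and invected and send out the Hedgehog ligand. In neighbouring anterior cells Hedgehog binds Patched, which then stops holding Smoothened inactive, and the transcription factor Cubitus interruptus is kept in its activator form. Patched is both the receptor and a target of the pathway, and engrailed, invected and hedgehog are textbook targets of the Polycomb and Trithorax groups.

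Of the 9 summits at hh, smo and ci, 4 are printed, those whose windows hold no annotated coding sequence or untranslated region over their whole length: the summit before hh that has hh as its nearest gene, the only summit at ci, and 2 past the end of smo, 1 of them the strongest of all 27. Each is 201 bases of the plus strand of dm6 centred on the summit, with capitals marking matches to the 7 short words searched, which are named with the word results. The hh window is chr3R:23144725-23144925, where GCCAT, the core of the site of the Polycomb group protein Pho, begins 30 bases before the summit. The ci window is chr4:60460-60660 and held none of the words. The smo windows are chr2L:285760-285960, which held none, and chr2L:286532-286732, which holds CTCTC, the GAGAG word of GAGA factor on the minus strand, from 84 bases after the summit.
hh summit 23144825: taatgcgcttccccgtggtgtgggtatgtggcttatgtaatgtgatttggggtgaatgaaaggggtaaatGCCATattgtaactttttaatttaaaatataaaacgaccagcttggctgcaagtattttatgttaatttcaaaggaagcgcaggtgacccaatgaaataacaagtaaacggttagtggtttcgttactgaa
ci summit 60560: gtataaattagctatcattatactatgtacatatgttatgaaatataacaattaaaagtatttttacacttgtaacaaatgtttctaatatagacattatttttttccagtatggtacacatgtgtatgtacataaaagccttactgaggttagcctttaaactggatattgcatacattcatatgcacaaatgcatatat
smo summit 285860: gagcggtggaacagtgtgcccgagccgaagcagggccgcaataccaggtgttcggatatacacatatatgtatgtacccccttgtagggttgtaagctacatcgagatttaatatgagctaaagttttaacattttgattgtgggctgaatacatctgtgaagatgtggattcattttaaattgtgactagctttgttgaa
smo summit 286632: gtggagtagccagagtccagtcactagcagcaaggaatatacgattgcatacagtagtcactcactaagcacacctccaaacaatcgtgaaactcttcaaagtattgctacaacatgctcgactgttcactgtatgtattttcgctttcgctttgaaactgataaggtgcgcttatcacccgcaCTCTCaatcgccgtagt

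The authors deposited a region list for each replicate, 1 for both pooled, and the thresholded list, kept by the irreproducible discovery rate (IDR). The pooled list and the replicate lists held 30000 regions each, and the thresholded list was the strongest 10936 of the pooled one, of which 10918 lay on the arms. The authors gave every region a signal value on a scale that the sources used here do not state. Signal ran from 164 to 8950 with a median of 328 in the thresholded list, and rank 1 is the strongest region of a list. The median was 112 in the pooled list, which its label describes as peaks and background. It was 72.2 in replicate 1 and 45.9 in replicate 2, so replicates are compared here by rank. The lists give no read counts, so depth is unknown.

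The gene of the ligand, hh (FBgn0004644, chr3R:23128169-23141906, minus strand), held no thresholded summit in its body and 3 in the flanks. The summit at 23144825 lay 2919 bases before the hh start, with a pooled signal of 305 and rank 5918. It ranked 5979 in replicate 1 and 6244 in replicate 2, so its place in the libraries was alike. The other 2 lay past the 3′ end of hh, where other genes start. The one at 23126680 had a signal of 324 (rank 5552) and lay 258 bases from the start of CG31365, and the one at 23127943 had a signal of 196 (rank 9307) and lay 38 bases from the start of CG31457. Only the upstream summit was thus nearer to the hh start than to any other protein-coding start. At the hh start itself the strongest summit, 114 bases away, had a pooled signal of 147 and rank 12011, below the thresholded list. Of all genes, 29.1% had 3 or more summits, and 40.4% had as many per 10 kb of window as hh, which had 1.26.

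The gene of the receptor, ptc (FBgn0003892, chr2R:8649649-8665223, plus strand), had 12 thresholded summits, or 4.69 per 10 kb of its 25575-base window. Only 1.23% of all genes had as high a density, against a median of 0.878 per 10 kb. Of the 12, 6 lay in the gene and all 6 fell in its first intron, of 9401 bases (8650551 to 8659951). Another 4 lay before the start and 2 past the end. The intron summits had signals from 314 to 715 with a median of 444, against 174 to 571 with a median of 244 for the 6 outside the gene.

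The strongest ptc summit, in the intron at 8652446 and 2797 bases into the gene, had a pooled signal of 715 and rank 2019. It ranked 1649 in replicate 1 and 2742 in replicate 2. The next, at 8650635 and 986 bases in, had a signal of 662 and ranked 2127 and 2530 in the replicates. Another at 8654435, 4786 bases in, had a signal of 535 and ranked 2695 and 3494. These 3 were thus high in both libraries, well above the median region. The summits deeper in the intron, at 8659086 and 8659736, had signals of 347 and 353, and that at 8650836, which also overlaps an exon of the noncoding RNA gene lncRNA:CR44281, had 314.

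Around the ptc start signals were lower. The summit 216 bases before the start had a signal of 224, ranking 9483 and 6615 in replicates 1 and 2, and the one 5 bases before it had 174, ranking 9346 and 18985. The start of ptc was therefore in the thresholded list, but its weaker summit was low in replicate 2. Farther upstream, summits 3748 and 3049 bases before the start had signals of 263 and 185, the latter ranking 7633 in replicate 1 and 16316 in replicate 2. Past the 3′ end, summits at 8667154 (signal 571) and 8669204 (signal 267) lay 983 and 1519 bases from a start of Acsl, a fatty acyl-CoA synthetase gene. Of the 12 summits, 8 were nearer to a ptc start than to any other protein-coding start, and the other 4 were nearest to Acsl.

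**Figure D1:**
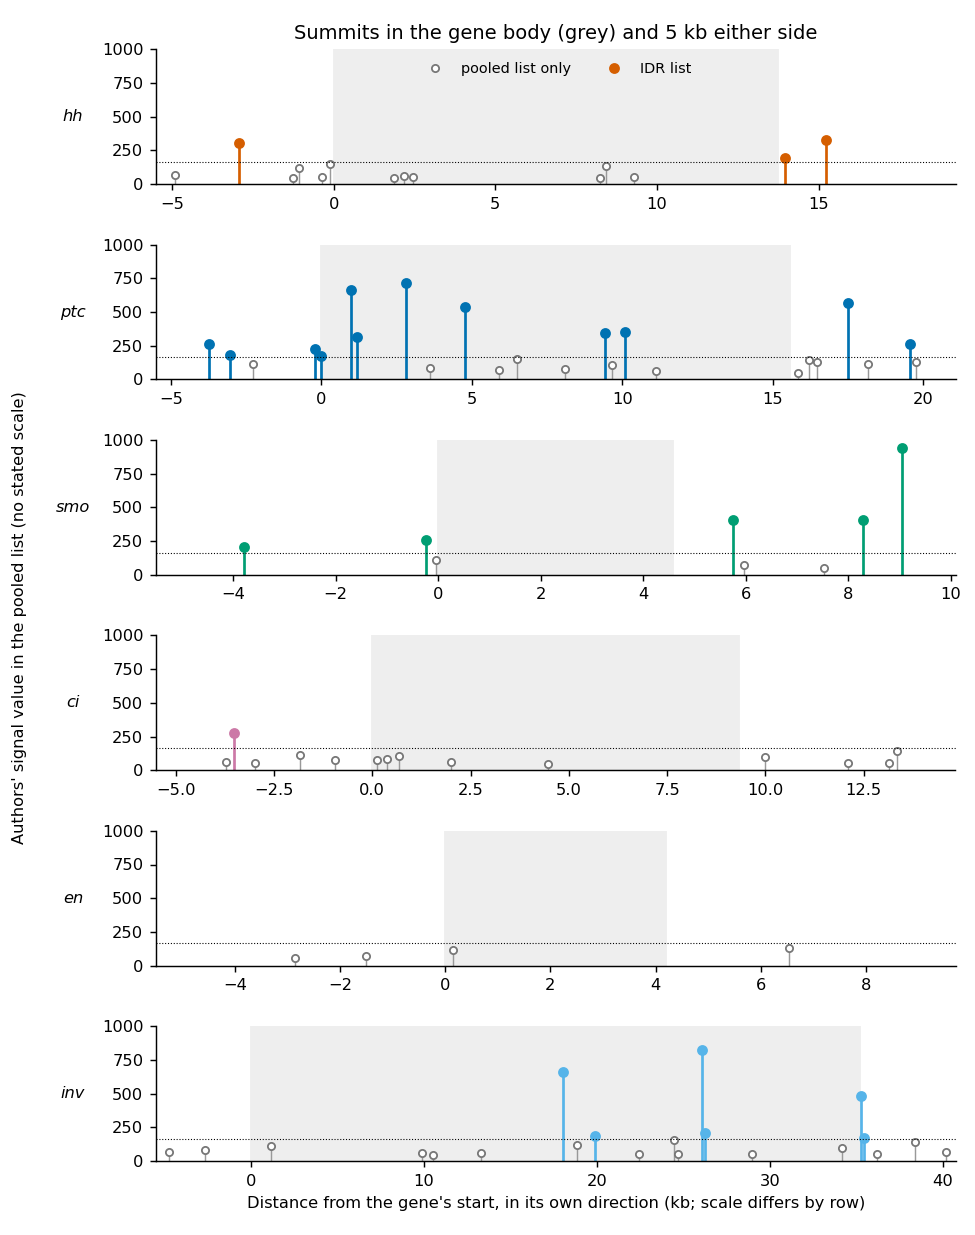
Summits in the window of each gene, with distance from the gene's start in kb on the x axis, in the gene's own direction, and the authors' signal in the pooled list on the y axis, which has no stated scale. Filled points are thresholded summits, open points are summits in the pooled list only, grey marks the gene body and the dotted line the lowest thresholded signal, 164. The ptc intron holds 6 filled points, from 314 to 715, and en has no filled point.

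The gene of the transducer, smo (FBgn0003444, chr2L:277582-282167, plus strand), encodes the seven-pass membrane protein that Patched restrains. It had 5 thresholded summits in a window of 14586 bases, a number reached by 9.2% of all genes, and none lay in the gene body. The strongest of all 27 summits, at 286632 and 4465 bases past the smo end, had a pooled signal of 941 and rank 1323. It ranked 1403 in replicate 1 and 1191 in replicate 2, and lay 101 bases from the start of CG3625. The remaining downstream summits, at 283332 (signal 410) and 285860 (signal 406), lay 63 bases from the start of CG11601 and 134 bases from that of CG3625.

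Upstream of smo, the summit at 277341 had a signal of 257 and lay 241 bases before the smo start, which made it a promoter summit, one within 500 bases of a start. It lay closer, at 129 bases, to the start of the neighbour CG17078, so the 2 starts cannot be told apart at this distance. It ranked 6438 in replicate 1 and 9049 in replicate 2. The summit at 273807, 29 bases from the start of CG11555, had a signal of 207 and ranked 16366 in replicate 1 but 4826 in replicate 2, the widest disagreement at smo. None of the 5 summits was nearer to the smo start than to that of another gene.

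The gene of the transcription factor, ci (FBgn0004859, chr4:47710-57041, minus strand), encodes the zinc-finger protein that activates or represses Hedgehog targets. Its only thresholded summit, at 60560, lay 3519 bases before the start, inside the antisense RNA gene asRNA:CR43957, with a pooled signal of 276 and rank 6576. It ranked 11072 in replicate 1 and 3751 in replicate 2, so it was far higher in replicate 2. The pooled list held 13 weaker summits in the ci window with signals up to 145. The highest of them lay past the ci end, 87 bases from the start of PlexB. Another lay 33 bases from a ci start, with a signal of 104 and rank 15829.

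The selector genes en (FBgn0000577, chr2R:11524006-11528210, minus strand) and inv (FBgn0001269, chr2R:11474465-11509695, plus strand) lie next to each other and encode closely related homeodomain proteins that mark posterior cells. Neither had a thresholded summit at its start. At inv 6 were found, of which 4 lay in an intron of 27659 bases (11477270 to 11504928) and 2 just past the 3′ end. The strongest, at 11500525, had a pooled signal of 824 and rank 1623, and ranked 1658 and 2048 in replicates 1 and 2. A weaker summit of the same region, at 11500727, had a signal of 205.

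The second strongest inv summit, at 11492520, had a signal of 663 and ranked 2275 and 2201 in the replicates. At 11509707, 12 bases past the inv end, the signal was 480 with ranks 3493 and 3658. These 3 strongest were alike in both libraries. Lower values were found at 11494364, with a signal of 188 and ranks 11120 and 8399, and at 11509910, with a signal of 170 and ranks 23179 and 17419, the weakest of all 27. The last 2 along the chromosome, both past the inv end, were nearer to an en start than to the inv start. For its window of 45231 bases inv had 1.33 summits per 10 kb, a density that 39.6% of genes reached, while 5.27% had 6 or more.

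No thresholded summit lay within 5 kb of en. The nearest lay 8081 bases from it on the inv side, at 11515925, outside both windows, with a pooled signal of 621 and rank 2451, and it ranked 2196 in replicate 1 and 3196 in replicate 2. The nearest on the other side, at 11539230, lay 11020 bases away with a signal of 313. The 14310 bases between inv and en (11509696 to 11524005) held 3 thresholded summits, namely this one and the 2 just past the inv end. In the en window the pooled list held 4 weaker ones, the highest with a signal of 129 at 11521677 (rank 13383), and replicates 1 and 2 held 4 and 5. The strongest near the en start, 147 bases away, had a signal of 112 and rank 15026. At inv the one nearest to a transcript start, 81 bases from it and 1162 bases into the gene, had a signal of 107 and rank 15544.

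Set side by side, 2 of the 6 genes, ptc and smo, had a promoter summit in the thresholded list, against 35.4% of all protein-coding genes. With 6 genes that share is near the background. A summit nearest to the gene's own start was present at 4 genes, hh, ptc, ci and inv, against 35.7% of all genes, and 14 of the 27 summits were of this kind. The 2 past the inv end, nearest to en, are not among the 14. The whole pooled list runs below the threshold and includes background by its label. In it all 6 genes had a promoter summit, against 52.0% of all genes, as they did in each replicate list. The 4 start summits that missed the threshold, at hh, ci, en and inv, had pooled signals from 104 to 147. The pooled median was 112. The lowest thresholded signal was 164.

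**Figure D2:**
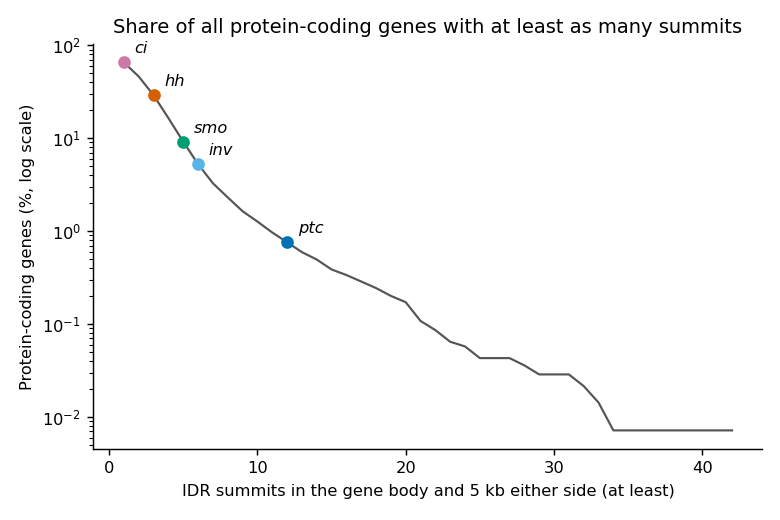
Share of all 13945 protein-coding genes, in percent on a log scale, with at least the number of thresholded summits on the x axis in the gene body and 5 kb either side. Coloured points mark the 5 genes that had a summit, from ci with 1 (65.5% of genes) to ptc with 12 (0.76%).

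Long genes have larger windows and more room for summits. The median gene body was 11535 bases for the 6 genes and 2166 for all protein-coding genes, and the part that length has in the counts was not tested beyond the densities above. The gene with the same number of summits and the closest strongest signal was EcR for ptc, the ecdysone receptor gene, with a strongest signal of 760 and 12 summits among 22 other genes with that number. It was CenB1A for hh, Rtc1 for smo, CG34164 for ci and nenya for inv.

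By place, the 10 intron summits had a median signal of 444 (188 to 824), the 9 past a gene's end 406 (170 to 941), and the 8 before a start 240.5 (174 to 305). The upstream summits were therefore all below the median of the thresholded list, 328, and the intron and downstream ones straddled it. Over all 27 the median was 314, and 12 lay above 328. Of the 27 summits, 12 lay in regions of the list's commonest width, 476 bases (44.4%, against 48.6% of the list). Those 12 had a median signal of 215, and the 15 others a median of 480. The whole list had the same order, with 227 at that width and 520 for narrower regions. The median G+C content within 100 bases was 37.8% at the 27 summits and 34.8% over the whole list.

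The regions of all 27 summits overlapped a region of each replicate list by 1 base or more, against 98.6% of all thresholded regions. A stricter count required a region among the strongest 10918 of both replicates, which 23 of 27 met (85.2%, against 84.3% of all). Those that did not were the summits at 273807 near smo, 8646600 before ptc, 11494364 in inv and 60560 before ci. By the rank of the nearest replicate summit, 20 of 27 were within rank 10918 in both replicates and 1 in neither. That 1 is the summit at 11509910, whose region overlaps that of the stronger summit at 11509707 and so met the stricter count. The summit at 8649644 by the ptc start (rank 18985 in replicate 2) and that at 23127943 past hh (12167 in replicate 1) also met it only through a stronger overlapping replicate region. The replicate summit nearest to each of the 27 lay within 79 bases in replicate 1 and within 84 in replicate 2. Both shares were near those of the whole list. The list was made from these same libraries, so this is a description.

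**Figure D3:**
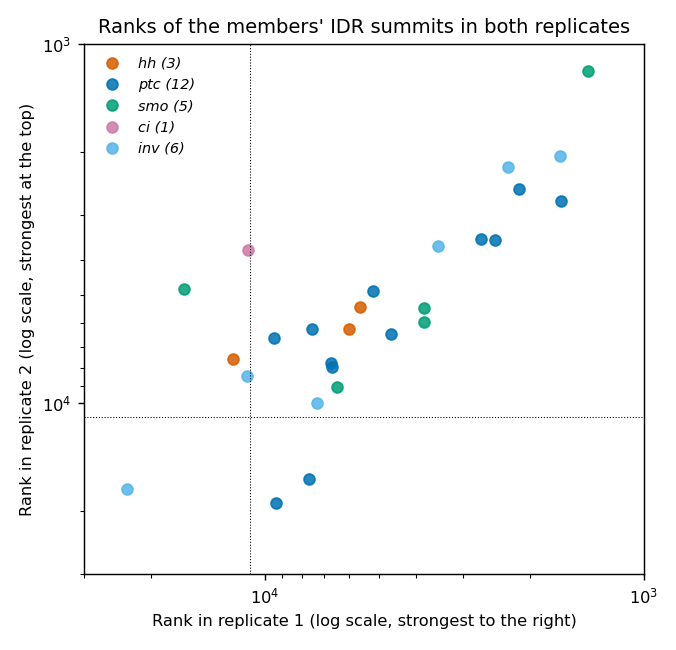
Rank of the replicate region nearest to each of the 27 summits, in replicate 1 (x axis, strongest to the right) and replicate 2 (y axis, strongest at the top), both on log scales. Dotted lines mark rank 10918: 20 points lie within it in both replicates, 5 lie beyond it in replicate 1 and 3 beyond it in replicate 2, including 1 beyond it in both.

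The 7 words were looked for on both strands within 100 bases of each summit. GAGAG occurred at 6 of the 27 (22.2%, 95% Wilson interval 10.6 to 40.8, which covers counting error only), the same share as over all 10918 windows, 22.2%. It was found at 4 ptc summits, and at the summits beside the ptc start it occurred 4 times (216 bases before) and 7 times (5 bases before). GCCAT occurred at 11 of 27 (40.7%, interval 24.5 to 59.3) against 24.6% of all windows. It was at all 3 hh summits, at 5 of 12 ptc summits, at 2 of 6 inv summits and at the smo promoter summit. Of the 3 hh summits, 2 were nearest to the starts of other genes. The interval reaches 24.5, next to the share of the whole list, and summits that lie close together were counted as separate windows. Within 50 bases the shares were 25.9% against 13.3% of all windows, and within 150 bases 63.0% against 36.8%.

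GACCACCCA, the consensus site of Ci itself, was absent from all 27 windows, which allows a share of up to 12.5% by the interval, and occurred in 2 of the 10918 windows (0.0183%). The homeodomain word TAATTA was at 4 windows (14.8%, against 17.2%), 3 of them at ptc, and the repeat CACACA also at 4 (14.8%, against 14.6%). TATCGATA, the DNA replication-related element of core promoters, was at 2 windows (7.41%, against 3.8%), namely the smo promoter summit and the summit 38 bases from the CG31457 start. GGTCACAC, the core promoter word called Motif 1, was at 1 window (3.7%, against 2.58%), again the smo promoter summit. GAGAG can overlap itself in a run, TAATTA and TATCGATA read the same on both strands, GGTCACAC and CACACA can share letters, and none of the words contains another.

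**Figure D4:**
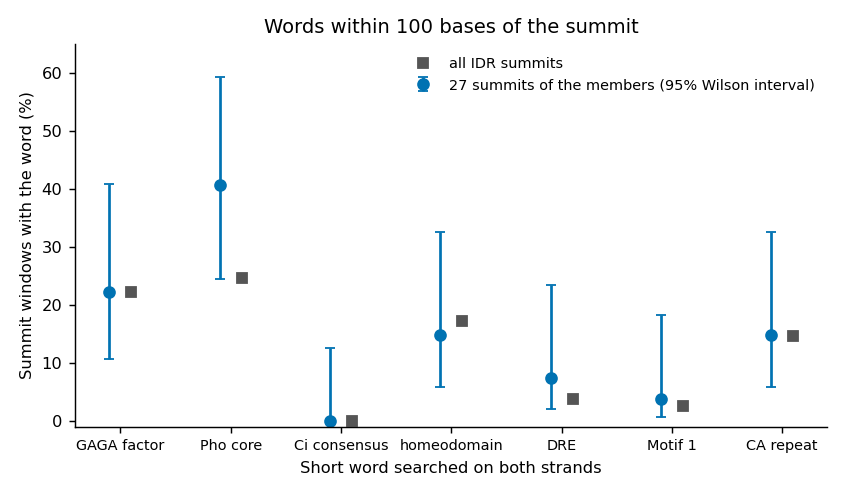
Share of summit windows, in percent, that hold each of the 7 words, named on the x axis by the factor or element it belongs to. Circles are the 27 summits of the 6 genes with 95% Wilson intervals and squares are all 10918 thresholded summits. Every interval includes its square, narrowly so for the Pho core at 40.7% (24.5 to 59.3) against 24.6%.

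A list of 26 other genes of the pathway was counted in the same way. Of these 24 had a thresholded summit in the window (92.3%, against 65.5% of all genes) and 16 a promoter summit (61.5%, against 35.4%). Their median gene body was 8215.5 bases, longer than the 2166 of all genes. At disp, dlp, fu, slmb, krz and Usp8 the promoter summit was shared with the start of another gene. The only window summits of ihog and botv lay 89 and 98 bases from the starts of SA1 and CG15118. Among 8 genes that release and spread the ligand, all 8 had a window summit and 6 a promoter summit. Both coreceptor genes, ihog and boi, had window summits and neither had a promoter summit. Of 12 signal transduction genes, 10 had a window summit and 8 a promoter summit, and of 4 target genes 4 and 2.

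The 2 strongest promoter summits of the list were at kinase genes. For gish, a casein kinase 1 gene, the signal was 5210 in the pooled list, 3380 in replicate 1 and 1850 in replicate 2. For sgg, the fly glycogen synthase kinase 3, it was 2510, 1660 and 847. Next was rdx, a Hedgehog target whose product helps degrade Ci, with 2090, 1390 and 705 and 18 summits in all. Then came the heparan sulfate synthesis gene sotv with 865, 561 and 309, and the glypican gene dlp with 732, 385 and 385, whose summit is shared with the start of RecQ5. These signals are read within each list only. Median signal differed between the replicate lists (72.2 and 45.9), so a difference or a match between replicates is not read from them. Over the 16 pathway promoter summits signals ran from 185 to 5210 with a median of 390. Of these 13 lay above the promoter signal of ptc (224) and 11 above that of smo (257), with fu (185), Cul3 (201) and wg (217) below both. The 2 genes with no summit were cos, a kinesin-like scaffold gene, and Su(fu), an inhibitor of Ci.

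**Figure D5:**
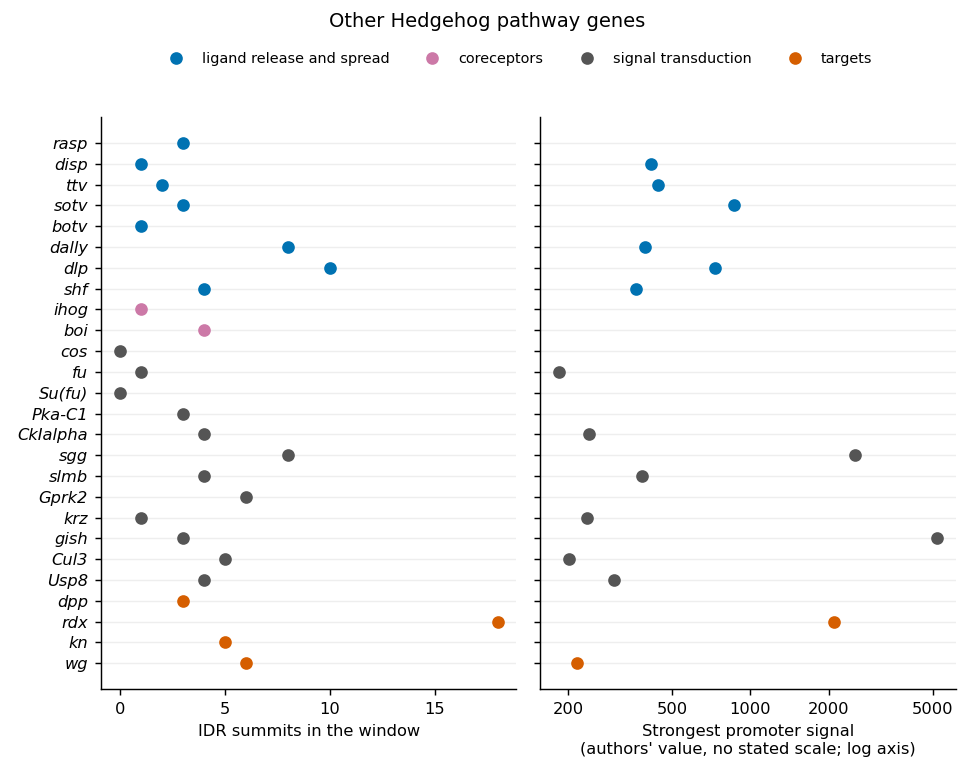
The 26 other pathway genes by role, with the number of thresholded summits in the window on the left and the authors' signal of the strongest promoter summit on a log axis on the right. A gene with no point on the right has no promoter summit; rdx has the most summits (18) and gish the strongest promoter (5210).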

How the data were processed

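ChIP-seq for GFP-tagged Espinas was analysed in 2 replicates of 1 group of white prepupae. The authors deposited lists of regions with a signal value and a summit offset: 1 list per replicate, 1 pooled and 1 thresholded by IDR, per the labels. In the sources used here, the caller, its version and the IDR cut-off are not given. Lists on dm3 and control libraries were not used here. The summit is the region start plus the authors' offset, as a 1-based position on dm6. Regions off the arms (2L, 2R, 3L, 3R, X and 4) were dropped. Gene models are those of Ensembl release 115 (BDGP6.54), and bases were read from genome Release 6. A promoter summit lies within 500 bases of a protein-coding transcript's start. Every one of the 6 genes is described. Of the 26 pathway genes, the 5 with the strongest promoter signal and those without a summit are named. For each gene, the one with the same number of summits and the closest strongest signal is also named. The genes, lists and words were chosen with earlier results of these data known, so no p-value is given. The counting was tested on simulated regions. Alternatives varied the window, the promoter distance, the threshold, the overlap rule, the word window and the replicate left out. Python 3.11.15, numpy 2.4.6, pandas 2.3.3 and scipy 1.17.1 were used.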

Additional observations from a re-analysis of the deposited data

How the results depend on the processing

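Of 57 recomputed values, 46 were counts within 1.5 times the reported one or shares within its 95% interval. In the strongest 5459 thresholded regions, summits at the 6 genes went from 27 to 12, genes with a summit from 5 to 3, genes with a promoter summit from 2 to 0 and pathway genes with one from 16 to 10. Counting gene bodies only gave 10 summits at 2 genes and 15 of 26 pathway genes. No share of all genes is given for these alternatives. A drop at these genes therefore cannot be told apart from a general drop. The whole pooled list gave 85 summits, and counting 1 summit per run of overlapping regions gave 23. Keeping summits nearest to a start of the 6 genes, an alternative chosen after seeing the data, gave 16. Requiring the strongest regions of both replicates gave 85.2% in place of 100%. GCCAT was at 63.0% of windows with 150 bases either side (36.8% of all windows) and at 25.9% with 50 (13.3% of all). In the strongest 5459 regions it was at 3 of the 12 windows of the 6 genes (25.0%). No share of all windows is given for those regions, and over the whole thresholded list it was 24.6%. GAGAG was at 11.1% with 50 bases (10.2% of all windows) and at 22.2% with 150 (33.3% of all). Leaving out 1 replicate, with the strongest 10918 regions of the other in place of the thresholded list, gave 24 to 28 summits and 4 to 5 genes; the single ci summit was lost when replicate 2 was left out. No paired analysis was possible because there is 1 group. Depth is unknown and the signal's scale is not stated, so weak start summits below the threshold cannot be told apart from background.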
